A study of Mus musculus with 17 samples.

Results

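The genes described here encode the folding and export machinery of the endoplasmic reticulum (ER), the compartment in which secreted and membrane proteins are made. A list of 38 mouse genes was named by symbol: ER chaperones, disulfide isomerases and oxidases, transcription factors of the unfolded protein response, ER-associated degradation, the translocon with its targeting and signal peptidase subunits, and the COPII coat. Of these, 37 had a probe on the array (Sec23b had none), each gene being read from its brightest probe. Derl1 fell below the filter on low values, so 36 were tested among the 14737 genes that passed the filter, out of 19057 genes with a probe. Ero1l and Ero1lb of the list stand under their current symbols, Ero1a and Ero1b.

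Whole mouse uteri that were wild type (WT) or knocked out for Egr1 (KO), an immediate-early zinc finger transcription factor, were collected at 0, 3, 6 or 24 h after estradiol (E2). Total RNA was hybridised to Illumina WG-6 v2 bead arrays, giving 17 arrays in 8 groups: WT at 0 h (2 arrays), 3 h (3 arrays), 6 h (2 arrays) and 24 h (2 arrays), and KO at each of these times (2 arrays each). All groups after 0 h had received E2, and the 0 h groups are the control within each genotype. The labels do not state the knockout allele, the strain, the mice's age, whether ovaries had been removed, or the dose of E2. The labels do not tie the arrays of a group to separate animals, so the p-values reflect the spread among these arrays alone, and that spread may be technical. In whole tissue, fewer cells of a type and less RNA per cell cannot be told apart.

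Newly made secretory proteins enter the ER through the SEC61 channel, are folded by chaperones such as BiP (Hspa5) and GRP94 (Hsp90b1), are cross-linked by disulfide isomerases, and leave in COPII vesicles. Proteins that fail to fold are drawn back to the cytosol and degraded. When unfolded protein builds up, the sensors IRE1, PERK and ATF6 switch on XBP1, ATF4 and ATF6 itself, which raise the genes of this machinery. In the uterus, estradiol is known to drive growth and secretion by the luminal and glandular epithelium.

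Values are deposited log2 intensities, already normalized between arrays, so each change is measured against the rest of the genes on those arrays, and the level of one gene's probe is not set against another's. Arrays of a group correlated at 0.99 to 0.997 over all probes, and no 2 arrays were identical. Of the marker genes with a probe, 10 of 12 epithelial, 7 of 8 smooth muscle and 6 of 7 stromal ones lay above the array median on all 17 arrays. So did 7 of 8 endothelial and 8 of 9 macrophage markers. The share of all genes doing so was not computed, so these counts do not identify the tissue. The Egr1 probe did not pass as lower in KO at any time. It read 12.24 and 12.51 in WT at 0 h against 13.48 and 13.63 in KO, and 11.39 and 12.09 in WT at 24 h against 13.51 and 13.27 in KO (KO minus WT 1.18, adjusted p = 3.02e-03, and 1.65, adjusted p = 1.47e-04, limma). The difference was -0.15 at 3 h (adjusted p = 0.695) and 0.73 at 6 h (adjusted p = 0.0924). Its rise to 3 h was smaller in KO, by 1.09 against 2.42 in WT (interaction -1.33, adjusted p = 0.0241). No label says whether this probe falls inside the deleted or disrupted stretch, so it does not check the genotypes, and KO and WT mean arrays so labelled.

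In WT uteri the machinery rose mainly between 3 and 6 h. At 3 h after E2, 13 of the 36 tested genes were higher than at 0 h and 0 were lower (limma, adjusted p under 0.05), where 22.2% of all genes tested were higher and 24.5% lower. At 6 h, 29 of 36 were higher and 0 lower, against a background of 21.9% higher and 22.1% lower. The list was chosen with earlier results of these data known. Its counts are therefore descriptions, and their excess over the background is not an independent test. The median change over the 36 was 0.15 at 3 h and 0.79 at 6 h on the log2 scale, and over all genes tested -0.0068 and 0.0020. At 24 h, 16 stood above 0 h by the test, 1 was below (Herpud1), and the median change was 0.36, with 18.9% of all genes higher and 19% lower.

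The steps between times were tested as well. From 3 to 6 h in WT, 24 of 36 rose and 0 fell (background 13.3% higher and 12.7% lower). From 6 to 24 h, 0 rose and 17 fell (background 19.3% and 19%). Both WT arrays at 6 h lay above both at 0 h for 33 of the 36 and below both for 0. Of all genes tested, 68% did not overlap in one direction or the other. The highest WT group mean was at 6 h for 27 genes, at 24 h for 7 and at 3 h for 2.

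KO uteri followed a similar course. At 3 h, 13 of 36 were higher than KO at 0 h and 0 lower (background 19% higher, 21.4% lower), at 6 h 26 were higher and 0 lower (21.8% and 23%), and at 24 h 21 were higher and 1 lower (22.5% and 23.1%). The median changes were 0.17, 0.65 and 0.47. From 3 to 6 h, 16 rose and 0 fell (11.7% and 11.7%), and from 6 to 24 h 2 rose and 7 fell (19.7% and 18.6%). The highest KO group mean was at 6 h for 17 genes, at 24 h for 13, at 3 h for 4 and at 0 h for 2.

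Several of these counts leaned on single arrays. The WT 0 h arrays differed: the mean deviation of the 36 genes from their own mean over all arrays was -0.18 on the first and -0.47 on the second. Without the second WT 0 h array, the WT count fell to 7 at 3 h, of which 6 were higher and 1 lower (Sec11c), to 24 at 6 h and to 6 at 24 h, all higher. The WT count at 24 h was also 10 without the first WT 24 h array, all higher, and 11 without the second, 10 higher and 1 lower, and the WT count from 3 to 6 h was 15 when the first WT 6 h array was left out. For KO uteri the 3 h count was 6 without the first KO 3 h array, all higher, and 7 without the first KO 0 h array, 6 higher and 1 lower (Sel1l), and the count from 3 to 6 h was 3 without the first KO 6 h array and 5 without the second KO 3 h array. Calls that held in each of the 17 leave-outs numbered 6 of 13, 24 of 29 and 6 of 17 in WT at 3, 6 and 24 h, and 5 of 13, 18 of 26 and 15 of 22 in KO.

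**Figure D1:**
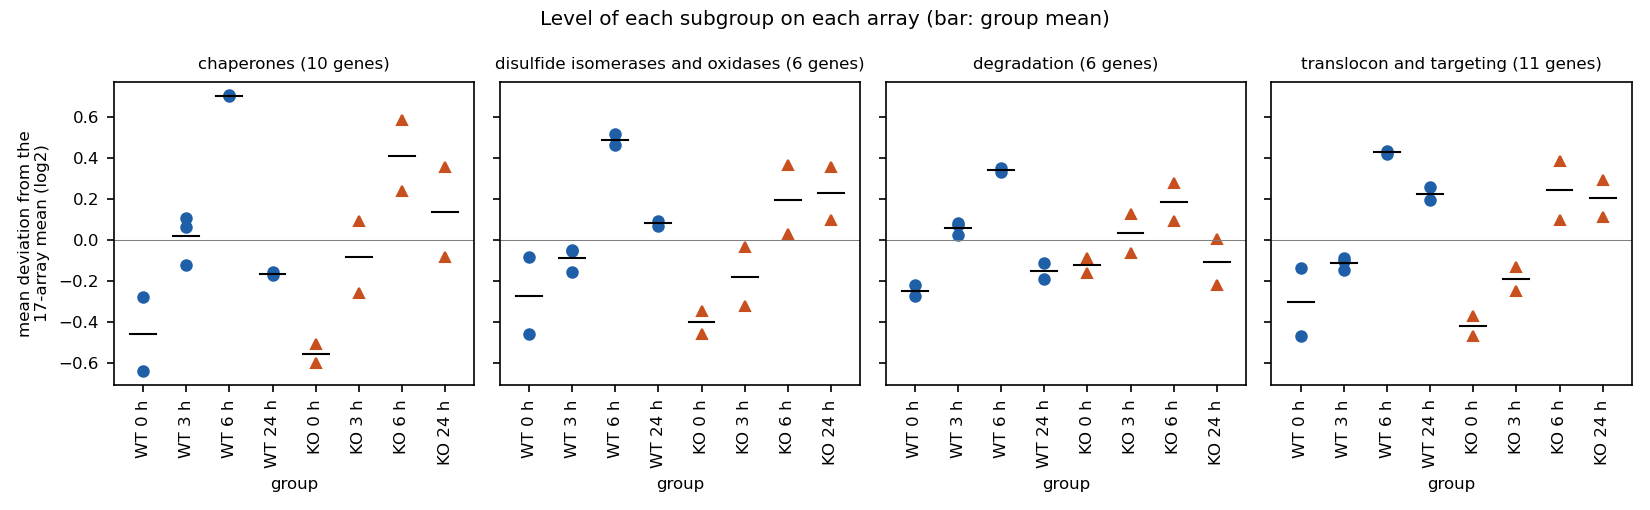
Mean log2 deviation of the genes of each subgroup from their own mean over all 17 arrays (y axis, log2) for the 8 groups (x axis), with 1 point per array, circles for WT, triangles for KO and a bar at each group mean. The WT arrays at 6 h are the highest WT arrays in the chaperone panel, and the 2 KO arrays at 24 h lie apart from each other there, at -0.08 and 0.35.

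The call depended on how bright the probe was. Of the 36, 26 had a mean above the array 75th percentile (8.87), and in WT at 6 h all 26 of these rose, where 34.5% of the 7340 genes of that brightness did. Of the 10 below it, 3 rose (Hyou1, Ero1b and Edem1), against 9.41% of 7397 genes. In KO at 6 h the counts were 24 of 26 and 2 of 10, against 36.1% and 7.64%. The dim members that passed no test against 0 h include Canx, the lectin chaperone calnexin, Manf, a secreted ER stress protein, Atf6, Ero1a, Derl3, Sec62 and Spcs2, and their probes near the background say little of the transcripts. Dimmer second probes of Dnajc3, Srp54a and Sec24d changed by 0.03, -0.02 and 0.03 in WT at 6 h, where the brightest probes changed by 1.71, 0.90 and 0.92, while second probes of Dnajb9, Pdia6 and Sec61a1 rose by 1.09, 0.84 and 0.59. A second Ero1b probe, above the median on 16 arrays, changed by 0.15 where the brightest changed by 0.76.

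The chaperones had the largest median change at 6 h of the 4 larger subgroups. In WT, 5 of 10 rose by 3 h, 8 of 10 by 6 h and 1 of 10 (Calr) stood above 0 h at 24 h, and 7 fell from 6 to 24 h. In KO the counts were 5, 8 and 7 of 10, with 2 falling from 6 to 24 h. Of all genes tested, 22.2%, 21.9% and 18.9% were higher at these times in WT, and 19% fell from 6 to 24 h. In KO these shares were 19%, 21.8%, 22.5% and 18.6%. The WT chaperone count at 24 h did not exceed its share. All 10 had their highest WT mean at 6 h, as did 8 in KO. Median changes were 0.33, 1.22 and 0.24 at 3, 6 and 24 h in WT, and 0.41, 0.88 and 0.57 in KO.

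Creld2, an ER-resident isomerase induced by stress, showed the largest change of the group. It read 10.79 and 10.29 in WT at 0 h, 12.22, 11.86 and 12.33 at 3 h, 13.26 and 13.15 at 6 h, and 10.89 and 10.89 at 24 h. In KO it read 10.54 and 10.77, then 12.34 and 11.40, 12.84 and 12.53, and 11.02 and 12.05. Every 3 h and 6 h array lay above every 0 h array of its genotype, and the 24 h arrays were close to 0 h except for 1 KO array. In WT it rose by 1.60 ± 0.29 (SE) at 3 h, which is 3.02-fold (adjusted p = 3.31e-04), and by 2.66 ± 0.31 at 6 h, 6.33-fold (adjusted p = 9.91e-06), and the 24 h change of 0.35 did not pass (adjusted p = 0.449). In KO the 6 h rise was 2.03 ± 0.31, 4.08-fold (adjusted p = 9.49e-05). Its second probe gave 2.72 in WT at 6 h.

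Dnajc3, the BiP cochaperone p58IPK, read 10.48 and 9.86 in WT at 0 h, 10.86, 10.73 and 11.10 at 3 h, 11.94 and 11.83 at 6 h, and 10.72 and 10.63 at 24 h. KO arrays read 9.84 and 9.89, 11.03 and 10.62, 11.69 and 11.28, and 10.80 and 11.29. The 6 h arrays were the highest in WT, while in KO the second 24 h array was level with the second 6 h array. The rise at 6 h was 1.71 ± 0.21 in WT (adjusted p = 1.32e-05) and 1.63 ± 0.21 in KO (adjusted p = 1.78e-05). At 24 h it was 0.50 in WT (adjusted p = 0.0741) and 1.18 in KO (adjusted p = 2.99e-04).

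Calr, the calcium-binding lectin chaperone calreticulin, was the chaperone that stayed high in both genotypes. WT arrays read 9.84 and 9.14 at 0 h, 10.36, 10.20 and 10.34 at 3 h, 10.83 and 10.84 at 6 h, and 10.42 and 10.47 at 24 h. KO arrays read 9.02 and 9.17, 10.25 and 9.96, 10.91 and 10.37, and 10.71 and 10.96. All arrays after E2 lay above the 0 h arrays of their genotype. Calr rose by 0.81, 1.35 and 0.96 at 3, 6 and 24 h in WT (adjusted p = 1.66e-03, 5.92e-05 and 1.43e-03) and by 1.01, 1.54 and 1.74 in KO (adjusted p = 7.50e-04, 1.56e-05 and 6.15e-06). A dim second Calr probe changed by -0.07 in WT at 6 h.

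Sdf2l1, an ER protein that works with BiP and its J-domain partners, did not move at 3 h. In WT it read 9.62 and 8.52 at 0 h, 9.11, 8.81 and 9.15 at 3 h, 10.56 and 10.61 at 6 h, and 9.77 and 9.72 at 24 h. In KO it read 8.67 and 8.96, 9.09 and 8.91, 10.27 and 9.50, and 10.23 and 10.99. The 0 h WT arrays were far apart. The 6 h WT arrays were the highest of that genotype, whereas in KO the 24 h arrays overlapped the 6 h arrays. The WT fall from 6 to 24 h passed in the main fit (limma) but not in several alternatives. Adjusted p was 0.0585 without a filter, 0.0646 after cyclic loess and 0.0597 after background subtraction. Changes at 6 h were 1.52 ± 0.31 in WT (adjusted p = 1.16e-03) and 1.07 ± 0.31 in KO (adjusted p = 0.0118), and at 24 h 0.68 (adjusted p = 0.111) and 1.80 (adjusted p = 2.80e-04). The KO change at 6 h was 0.69 (adjusted p = 0.145) without the first KO 6 h array and 0.93 (adjusted p = 0.0805) without the first KO 0 h array.

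Of the chaperones outside the naming rule, Hspa5, chosen for its role after its values were seen, read 8.80 and 8.59 in WT at 0 h, 9.62, 9.16 and 9.50 at 3 h, 9.74 and 9.85 at 6 h, and 9.04 and 8.94 at 24 h. The 3 h and 6 h arrays were above the 0 h arrays. It rose by 0.73 at 3 h and 1.10 at 6 h in WT (adjusted p = 4.27e-03 and 4.07e-04), and by 0.98 at 6 h in KO (adjusted p = 9.15e-04). Hsp90b1 rose by 1.01 and 0.79 at 6 h, and Hyou1, a nucleotide exchange factor of BiP, by 0.75 and 0.69. Dnajb9, a J-domain cochaperone, also singled out after its values were seen, rose at 6 h alone of the 3 times in WT, by 1.36 (adjusted p = 1.63e-05), and fell by 1.56 from 6 to 24 h (adjusted p = 7.85e-06). Canx and Manf changed by 0.06 and 0.10 in WT at 6 h and did not pass.

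**Figure D2:**
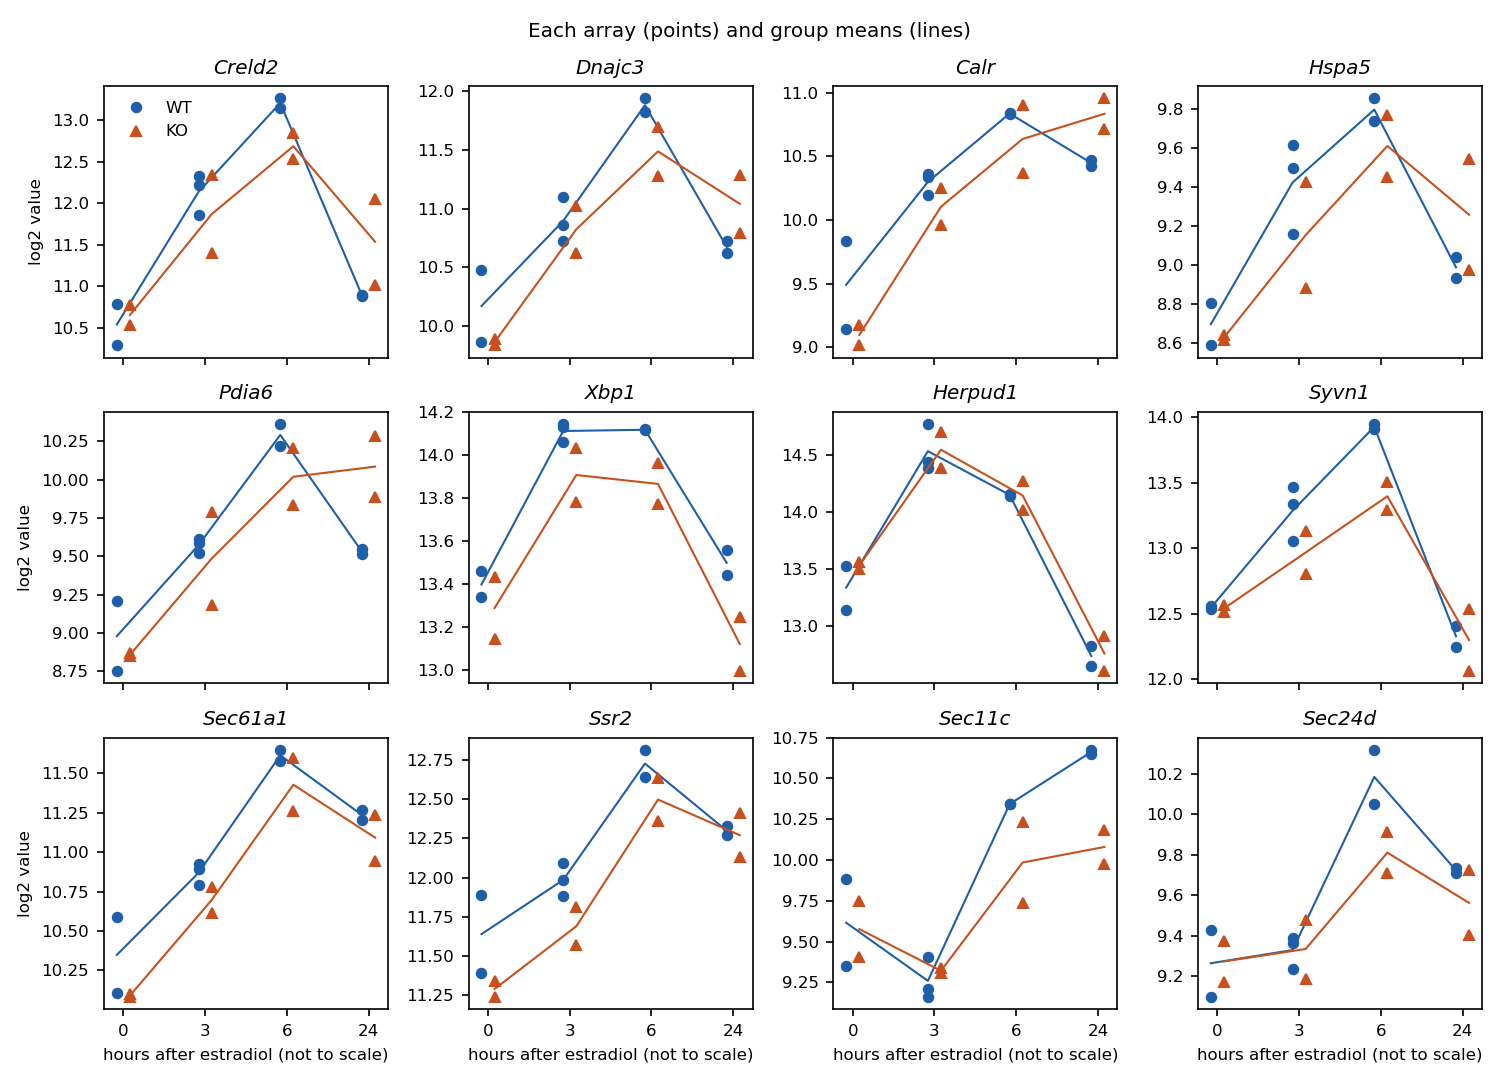
Deposited log2 value (y axis, a range of its own in each panel) of 12 of the genes described, against hours after E2 (x axis, evenly spaced and not to scale), with 1 point per array, circles for WT, triangles for KO, and lines through the group means. Creld2 peaks at 6 h at 13.26 and 13.15 in WT, and Herpud1 is lowest at 24 h in both genotypes.

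The promoters of the listed genes were searched for the ER stress element, the sequence bound by ATF6 with NF-Y. RefSeq promoter windows were used (GRCm38.p6, 250 bases before to 50 after the start). Of the 37 genes, 29 had an entry. The element, CCAAT, then 9 free bases, then CCACG, on either strand, stood in 10 of the 29 (Calr, Canx, Creld2, Derl3, Dnajc3, Ero1b, Hsp90b1, Hspa5, Pdia6 and Syvn1), and in 39 of all 32851 windows, 0.119%. A related element, ATTGG, 1 free base, CCACG, stood in 12 windows (0.0365%), among them that of Herpud1. The stretches below are shown for the strongest risers that hold the element, for Hspa5 as its classical carrier, and for Canx, whose dim probe passed no test. Capitals mark the element, in which CGTGG first and ATTGG last is the match on the opposite strand.
Hspa5 (chr2:34772010-34772058, plus strand): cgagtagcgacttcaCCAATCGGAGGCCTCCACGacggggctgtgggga
Creld2 (chr15:88819505-88819553, plus strand): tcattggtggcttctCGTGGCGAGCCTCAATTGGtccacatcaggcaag
Dnajc3 (chr14:118937812-118937860, plus strand): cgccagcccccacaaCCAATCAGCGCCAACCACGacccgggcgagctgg
Calr (chr8:84847060-84847108, minus strand): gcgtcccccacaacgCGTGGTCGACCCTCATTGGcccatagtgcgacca
Pdia6 (chr12:17266476-17266524, plus strand): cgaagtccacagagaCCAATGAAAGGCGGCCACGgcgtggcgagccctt
Syvn1 (chr19:6046517-6046565, plus strand): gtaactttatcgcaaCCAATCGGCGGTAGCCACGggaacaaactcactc
Canx (chr11:50325785-50325833, minus strand): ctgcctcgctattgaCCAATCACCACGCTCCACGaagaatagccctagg
Herpud1 (chr8:94386362-94386402, plus strand, ATTGG form): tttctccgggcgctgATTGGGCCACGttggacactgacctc

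All of these stretches end upstream of the start site, from 129 bases before it in Calr to 11 in Syvn1. Of the 10 genes with the first element, 7 rose at 3 h, 8 at 6 h and 2 at 24 h in WT, with a median change of 0.66 at 3 h and 1.21 at 6 h. Of the 19 genes with an entry but without it, 5, 16 and 10 rose, with medians of 0.12 and 0.70. In KO, 7, 8 and 6 of the 10 rose, and 4, 14 and 10 of the 19. Of all genes tested, 22.2%, 21.9% and 18.9% rose at these times in WT, and 19%, 21.8% and 22.5% in KO. Among 9 tested genes outside the list that hold the element, 3 rose and 3 fell in WT at 6 h, with a median of 0.02. At that time 22.1% of all genes fell. The element counts are descriptions as well, since the list was named for machinery that the unfolded protein response raises. A match is not evidence of binding.

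Other motifs were sparse in these windows. The estrogen response element, GGTCA, 3 free bases, TGACC, stood in 0 of the 29 genes and in 0.07% of windows. The EGR1 motif GCGTGGGCG stood in 0 of 29 (0.612% of windows), and GCGGGGGCG in Ero1b and Sec24d (2.91%). TGACGTGG stood in Sec24d (0.676%) and TGACGTGA in Hspa5 (0.441%), both forms of the XBP1 and ATF6 core. CCAAT alone, which the first element contains, stood in 24 of 29 genes and in 37.4% of windows. Both strands were searched.

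Of the disulfide isomerases and oxidases, which make and rearrange the disulfide bonds of secreted proteins, 1 of 6 rose at 3 h, 5 at 6 h and 3 at 24 h in WT, and 1, 5 and 4 in KO. Of all genes tested, 22.2%, 21.9% and 18.9% rose in WT and 19%, 21.8% and 22.5% in KO. The 3 h counts did not exceed these shares. Median changes were 0.12, 0.73 and 0.42 in WT and 0.16, 0.66 and 0.87 in KO. The isomerase Pdia6 read 9.21 and 8.75 in WT at 0 h, 9.61, 9.59 and 9.52 at 3 h, 10.22 and 10.36 at 6 h, and 9.51 and 9.54 at 24 h. KO arrays read 8.85 and 8.87, 9.79 and 9.18, 10.20 and 9.83, and 9.88 and 10.28. The WT arrays at 6 h were the highest of that genotype, and in KO the 6 h and 24 h arrays overlapped. Pdia6 rose at 6 h by 1.31 ± 0.19 in WT (adjusted p = 5.37e-05) and 1.16 ± 0.19 in KO (adjusted p = 1.38e-04). At 24 h the brightest probe stood 0.55 above 0 h in WT and 1.23 in KO. A second probe, above the median on all 17 arrays, gave 0.18 and 0.23 there.

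Pdia4, another isomerase of the ER lumen, read 11.52 and 10.94 in WT at 0 h, 11.39, 11.24 and 11.43 at 3 h, 12.44 and 12.57 at 6 h, and 12.01 and 12.05 at 24 h. In KO it read 11.01 and 11.33, 11.47 and 11.18, 12.29 and 11.72, and 11.99 and 12.52. The WT arrays at 3 h lay between those of 0 h, the KO arrays at 3 h overlapped those of 0 h with the first above both, and the later arrays lay above 0 h in each genotype. The change was 1.28 in WT at 6 h (adjusted p = 2.25e-04), 0.80 at 24 h (adjusted p = 8.91e-03), and 0.84 and 1.08 in KO (adjusted p = 5.17e-03 and 7.84e-04). Neither the WT rise at 24 h nor the KO rise at 6 h held in every leave-out: the first was 0.51 (adjusted p = 0.133) without the second WT 0 h array and 0.78 (adjusted p = 0.0503) without the second WT 24 h array, and the second was 0.55 (adjusted p = 0.0793) without the first KO 6 h array and 0.67 (adjusted p = 0.0579) without the first KO 0 h array. Pdia3, which acts on glycoproteins with calreticulin, rose by 0.70 and 0.78 at 6 h in WT and KO, and P4hb, the classical isomerase PDI, by 0.45 and 0.54. Without the second WT 0 h array these WT changes were 0.25 (adjusted p = 0.418) and 0.26 (adjusted p = 0.173), and without the first KO 6 h array the KO changes were 0.52 (adjusted p = 0.17) and 0.38 (adjusted p = 0.0586). Of the 2 oxidases, Ero1b rose by 0.76 and 0.33 at 6 h, the latter 0.19 (adjusted p = 0.214) without the first KO 6 h array, and Ero1a changed by 0.06 and -0.06 and did not pass.

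The transcription factors parted. Xbp1, whose spliced product raises chaperone and degradation genes, had already risen at 3 h. It read 13.46 and 13.34 in WT at 0 h, 14.14, 14.13 and 14.06 at 3 h, 14.12 and 14.12 at 6 h, and 13.44 and 13.56 at 24 h. Among KO arrays they were 13.14 and 13.43, 14.03 and 13.78, 13.96 and 13.77, and 12.99 and 13.25. The 3 h and 6 h arrays lay above the 0 h arrays in both genotypes, with no further step between them. It rose by 0.72 ± 0.10 at 3 h and 0.72 ± 0.11 at 6 h in WT (adjusted p = 4.61e-05 and 1.13e-04), and by 0.62 and 0.58 in KO (adjusted p = 4.52e-04 and 6.31e-04). Whether its probe tells spliced from unspliced Xbp1 is not known here. The Atf6 probe read between 8.01 and 8.34 on all arrays, around the array median of 8.20, and changed by 0.01 in WT at 6 h.

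Among the degradation genes stood an early peak and the single gene that fell below 0 h by the test. Herpud1, a membrane protein that recruits the ubiquitin ligase complex, read 13.14 and 13.53 in WT at 0 h, 14.39, 14.77 and 14.44 at 3 h, 14.16 and 14.14 at 6 h, and 12.65 and 12.83 at 24 h. KO arrays read 13.56 and 13.50, 14.70 and 14.39, 14.02 and 14.27, and 12.61 and 12.91. The 3 h arrays were the highest and the 24 h arrays the lowest in both genotypes, without overlap with 0 h. Its rise at 3 h was 1.20 ± 0.14 in WT (adjusted p = 9.02e-06) and 1.01 ± 0.16 in KO (adjusted p = 1.27e-04). At 24 h it was below 0 h by -0.60 in WT (adjusted p = 7.59e-03) and by -0.77 in KO (adjusted p = 9.21e-04). In WT this fall no longer passed when the second WT 0 h array, or the first WT 24 h array, was left out.

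Syvn1, the ubiquitin ligase HRD1, read 12.56 and 12.54 in WT at 0 h, 13.33, 13.05 and 13.47 at 3 h, 13.95 and 13.90 at 6 h, and 12.25 and 12.41 at 24 h. KO arrays read 12.57 and 12.51, 13.13 and 12.80, 13.50 and 13.29, and 12.06 and 12.53. The levels climbed from 0 to 3 to 6 h without overlap and were back near 0 h at 24 h. Syvn1 rose at 6 h by 1.38 ± 0.15 in WT (adjusted p = 6.30e-06) and 0.86 ± 0.15 in KO (adjusted p = 3.50e-04), and fell by 1.60 and 1.10 from 6 to 24 h. Its partner Sel1l rose by 0.62 at both 6 h and 24 h in WT, and in KO changed by 0.12 (adjusted p = 0.619) and 0.42 (adjusted p = 0.0506). The other 2 Sel1l probes, above the median on all arrays, gave 0.36 and 0.24 at 6 h and -0.07 and -0.02 at 24 h in WT, and without the second WT 0 h array the brightest gave 0.49 (adjusted p = 0.0668) and 0.50 (adjusted p = 0.0838). Derl2, a retrotranslocation subunit, rose by 0.37 at 6 h and 0.52 at 24 h in WT, and by 0.33 and 0.66 in KO. At 6 h its change was 0.22 (adjusted p = 0.17) in WT without the second WT 0 h array and 0.17 (adjusted p = 0.295) in KO without the first KO 6 h array. The mannosidase-like Edem1 rose by 0.27 at 6 h in WT, and in KO changed by -0.03. In all, 2, 5 and 3 of the 6 tested degradation genes were above 0 h in WT at 3, 6 and 24 h, and 2, 3 and 1 in KO. The shares of all genes were 22.2%, 21.9% and 18.9% in WT and 19%, 21.8% and 22.5% in KO. The KO count at 24 h did not exceed its share.

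The genes of the translocon, targeting and signal peptidase mostly still stood above 0 h at 24 h. In WT, 4, 9 and 8 of 11 were above 0 h at 3, 6 and 24 h, with medians of 0.17, 0.84 and 0.56, and in KO 4, 8 and 9, with medians of 0.17, 0.70 and 0.66. The shares of all genes were 22.2%, 21.9% and 18.9% in WT and 19%, 21.8% and 22.5% in KO. The WT changes of Ssr1, Ssr2, Ssr3 and Spcs3 at 24 h were 0.56, 0.66, 0.37 and 0.56. With the second WT 0 h array left out they shrank to 0.29, 0.41, 0.195 and 0.33. The WT count of 8 at 24 h therefore leaned on that array. The Ssr3 change did not pass without a filter on low values (limma, adjusted p = 0.0536). Nor did it pass without the second WT 3 h array (limma, adjusted p = 0.0598). Sec61a1, the pore subunit of the channel, read 10.59 and 10.11 in WT at 0 h, 10.89, 10.79 and 10.92 at 3 h, 11.58 and 11.65 at 6 h, and 11.21 and 11.26 at 24 h. On the KO arrays the values were 10.08 and 10.10, 10.78 and 10.61, 11.59 and 11.26, and 10.95 and 11.24. All arrays after E2 lay above the 0 h arrays of their genotype. It rose at 6 h by 1.26 ± 0.14 in WT (adjusted p = 6.33e-06) and 1.34 ± 0.14 in KO (adjusted p = 3.37e-06), and at 24 h by 0.89 and 1.00. A second Sec61a1 probe, above the median on all 17 arrays, was back at 0 h by then, at 0.04 in WT and -0.01 in KO.

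Ssr1, Ssr2 and Ssr3 encode subunits of the translocon-associated protein complex, which helps some signal peptides through the channel. Ssr2 read 11.89 and 11.39 in WT at 0 h, 12.09, 11.88 and 11.98 at 3 h, 12.81 and 12.64 at 6 h, and 12.27 and 12.33 at 24 h. KO arrays of Ssr2 read 11.24 and 11.34, 11.81 and 11.57, 12.63 and 12.36, and 12.13 and 12.41. The 6 h arrays were the highest in WT, and the 24 h arrays stayed above 0 h in both genotypes. Ssr2 rose at 6 h by 1.09 in WT (adjusted p = 3.69e-05) and 1.21 in KO (adjusted p = 1.27e-05). Ssr3 read 13.12 and 12.77 in WT at 0 h and 13.80 and 13.94 at 6 h, and rose by 0.92 (adjusted p = 6.66e-05) and by 0.80 in KO (adjusted p = 2.03e-04). Its 3 h arrays (13.30, 13.46 and 13.57 in WT) and 24 h arrays (13.31 and 13.31) fell between those of 0 h and 6 h. In KO, Ssr3 read 12.78 and 12.95 at 0 h, 13.57 and 13.22 at 3 h, 13.75 and 13.59 at 6 h, and 13.19 and 13.42 at 24 h.

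Sec63, the J-domain partner of the channel, read 10.60 and 10.21 in WT at 0 h, 10.89, 10.75 and 10.83 at 3 h, 11.29 and 11.19 at 6 h, and 11.15 and 10.90 at 24 h. The KO values were 10.09 and 10.27, 10.67 and 10.71, 11.21 and 10.99, and 10.87 and 11.21. No array after E2 reached down to the 0 h arrays of its genotype. Sec63 rose by 0.84 at 6 h in WT (adjusted p = 1.55e-04) and 0.92 in KO (adjusted p = 5.78e-05), and its 3 probes gave 0.84 to 0.96 in WT. Srp54a, the GTPase subunit of the signal recognition particle, rose by 0.90 and 0.70 at 6 h, and Sec61b by 0.47 and 0.50. Ssr1 rose by 0.63 and 0.59, while a second Ssr1 probe above the median on all arrays changed by 0.19 and -0.13. Its WT change of 0.17 at 3 h did not pass. At 6 h the signal peptidase subunit Spcs3 rose by 0.97 and 0.79. Sec62 and Spcs2, both dim, changed by 0.03 and 0.17 in WT at 6 h and did not pass.

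Sec11c, a catalytic subunit of signal peptidase singled out after its values were seen, had its highest level in WT at 24 h. It read 9.88 and 9.35 at 0 h, 9.40, 9.16 and 9.21 at 3 h, 10.34 and 10.34 at 6 h, and 10.65 and 10.67 at 24 h. Among KO arrays they were 9.41 and 9.75, 9.31 and 9.34, 10.23 and 9.74, and 9.98 and 10.18. At 24 h both WT arrays lay above both KO arrays. The change from 0 h was 0.73 at 6 h and 1.05 at 24 h in WT (adjusted p = 3.25e-03 and 3.21e-04), and 0.41 and 0.50 in KO (adjusted p = 0.0718 and 0.0277). Without the second WT 0 h array the WT change was 0.46 at 6 h (adjusted p = 0.0538) and -0.62 at 3 h (adjusted p = 0.00775), where all arrays gave -0.36, not past the test. That 3 h change also passed without either KO 6 h array (adjusted p = 0.0447). The KO change at 24 h was 0.33 (adjusted p = 0.24) without the first KO 0 h array and 0.40 (adjusted p = 0.178) without the second KO 24 h array.

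Sec24d, a cargo-binding subunit of the COPII coat, read 9.43 and 9.10 in WT at 0 h, 9.39, 9.23 and 9.36 at 3 h, 10.05 and 10.32 at 6 h, and 9.74 and 9.71 at 24 h. KO arrays read 9.37 and 9.17, 9.48 and 9.19, 9.91 and 9.71, and 9.40 and 9.72. The 3 h arrays overlapped those of 0 h, and the 6 h arrays were the highest in WT. It rose by 0.92 at 6 h in WT (adjusted p = 9.56e-05) and 0.54 in KO (adjusted p = 5.67e-03). The KO change was 0.44 without either the second KO 0 h array (adjusted p = 0.0613) or the first KO 6 h array (adjusted p = 0.0578).

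**Figure D3:**
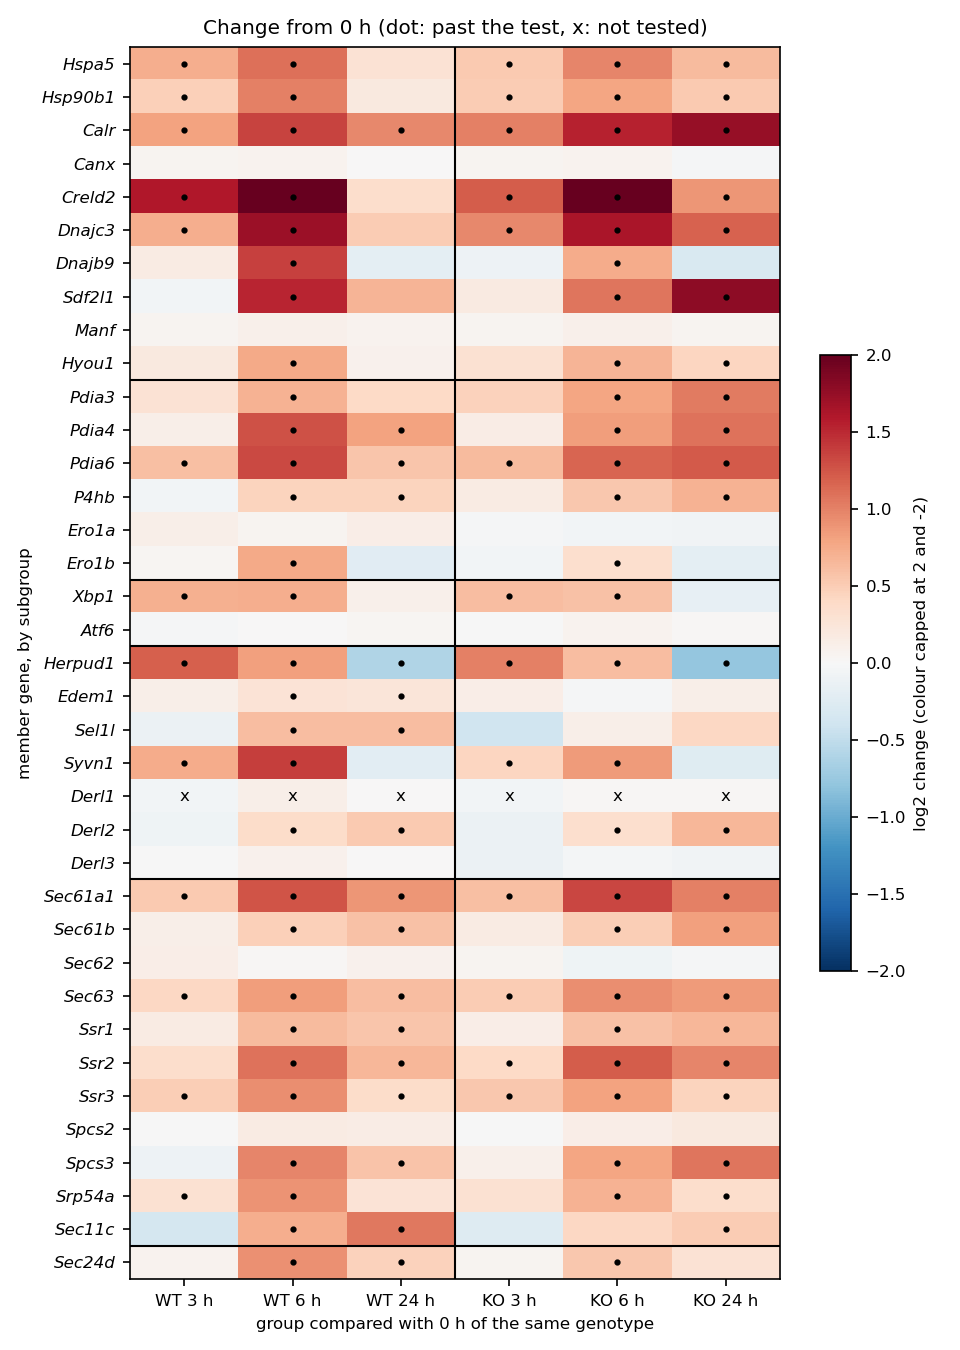
Log2 change of each of the 37 genes with a probe (rows, by subgroup) at 3, 6 and 24 h against 0 h in WT and KO (columns), in colour capped at 2 and -2, with a dot where the adjusted p (limma) was under 0.05 and a cross for Derl1, which was not tested. The 6 h columns hold 29 dots in WT and 26 in KO, and Herpud1 at 24 h is the dotted fall in both genotypes.

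Whether the knockout altered this response was asked directly, by comparing KO with WT at each time and by the interaction, the KO change minus the WT change. Of the 36 genes, 0 passed the adjusted threshold in KO against WT at 0, 3, 6 or 24 h (limma), where 4.43%, 4.23%, 0.631% and 8.35% of all genes tested passed in either direction. The unadjusted p was under 0.05 for 3, 2, 10 and 5 of them. For the interaction 0 passed at 3, 6 or 24 h or jointly (background 1.09%, 0.4%, 7.27% and 6.83%), with 0, 4 and 7 under an unadjusted 0.05 at the 3 times. The median 95% interval of a KO minus WT difference, before adjustment, reached 0.30 to each side at 0, 6 and 24 h and 0.27 at 3 h. Differences of that size and smaller were not resolved. Larger ones also missed the adjusted threshold, such as 0.86 for Sdf2l1 at 24 h. A p that misses the threshold does not show that the genotypes are alike.

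At 6 h most of the 36 were lower in KO, though by amounts under the test's threshold. The median difference was -0.19, 3 of 36 were higher, and the differences ran from -0.70 (Sdf2l1) to 0.08 (Atf6). Both KO arrays lay below both WT arrays for 18 genes and above for 1, where 43.8% of all genes tested did not overlap in either direction. The 2 KO arrays at 6 h differed in the mean deviation of the 36 genes, at 0.40 and 0.12, against 0.49 and 0.50 in WT. Without the first KO 6 h array the median difference was -0.355 and 2 genes passed (Ero1b and Hyou1, both lower in KO), and without the second it was -0.06 and 0 passed. The smallest adjusted p was 0.131, for Ero1b.

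At 24 h the median difference was 0.02, and the genes spread in both directions, from -0.58 (Sec11c) to 0.86 (Sdf2l1). KO did not overlap WT for 11 genes on the higher side and 4 on the lower, against 59.5% of all genes in either direction. Xbp1 and Sec11c came nearest to the threshold, with differences of -0.38 (95% interval -0.62 to -0.14, adjusted p = 0.0537) and -0.58 (-0.96 to -0.21, adjusted p = 0.0546). Pdia6 differed by 0.56 (0.15 to 0.96, adjusted p = 0.0904) and Sdf2l1 by 0.86 (0.19 to 1.54, adjusted p = 0.118). A second Pdia6 probe, above the median on all 17 arrays, differed by only 0.05. Over 28 settings, the main one and leave-outs included, the adjusted p ran from 5.83e-03 to 0.381 for Xbp1, past the threshold in 12, and from 1.23e-03 to 0.298 for Sec11c, past it in 7. With array weights in the fit, 6 genes passed at 24 h: Calr, Hyou1, Pdia6 and Sdf2l1 higher and Sec11c and Xbp1 lower in KO, and 6 passed when only the groups compared were fitted.

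The 0 h comparison and the 24 h interaction turned on 1 array. Without the second WT 0 h array, 5 genes were lower in KO at 0 h (Calr, P4hb, Pdia3, Sec61a1 and Ssr2), and 6 had a larger rise to 24 h in KO than in WT (Calr, Dnajc3, Pdia3, Pdia6, Sdf2l1 and Spcs3). With all arrays, the interaction of Calr at 24 h was 0.78 (adjusted p = 0.103). That of Pdia6 was 0.68 by its brightest probe and 0.05 by its second. The count at 24 h between the genotypes was 1 to 3 without any one of 8 arrays: both KO 0 h, both KO 3 h, both KO 6 h and both WT 0 h arrays.

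**Figure D4:**
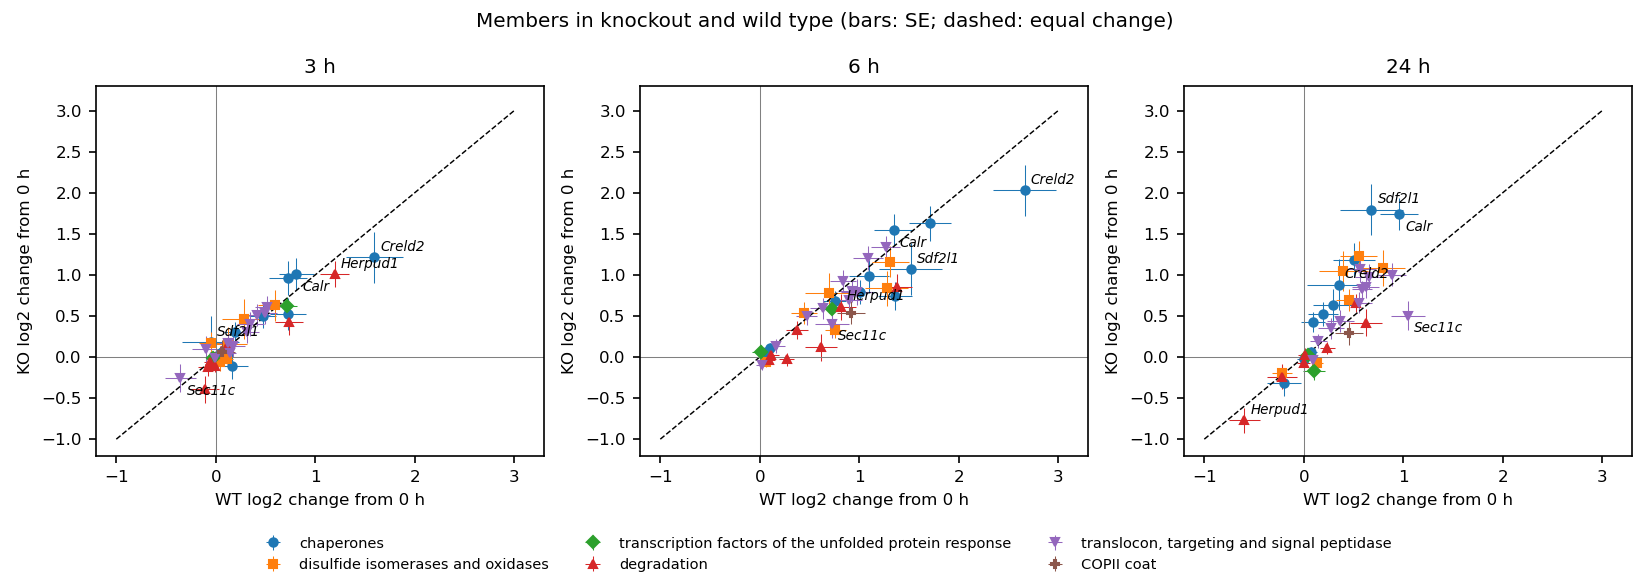
Change from 0 h in KO (y axis, log2) against that in WT (x axis, log2) for each of the 37 genes with a probe, 1 panel per time. Bars are SE, colours mark the subgroups and a dashed line marks equal change. Derl1, which was not tested, is among the points. At 6 h most genes lie near or below the line, and at 24 h Sdf2l1 (1.80 in KO, 0.68 in WT) and Calr (1.74 and 0.96) lie above it.

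Calls within each genotype can be set side by side, although the genotypes' difference was not past the test for any gene. At 6 h, 26 genes were higher than 0 h in both genotypes, 89.7% of the WT calls and 100% of the KO calls, and Edem1, Sec11c and Sel1l were called in WT alone. At 24 h, 13 were higher in both, 81.2% of the WT and 61.9% of the KO calls. Those called at 24 h in KO alone were Creld2, Dnajc3, Hsp90b1, Hspa5, Hyou1, Pdia3, Sdf2l1 and Srp54a. For Hspa5, Hsp90b1, Creld2, Hyou1 and Srp54a the KO call at 24 h did not hold without the second KO 24 h array. Without that array their changes were 0.35, 0.31, 0.36, 0.34 and 0.37. On it the 10 chaperones stood 0.35 above their mean, against -0.08 on the first. Srp54a, which is not a chaperone, read 10.12 on it and 10.17 on the first. Its call was lost without the first as well, where its change was 0.33. The calls of Creld2, Hspa5 and Srp54a were also lost without either KO 0 h array (adjusted p = 0.154 and 0.0617 for Creld2), that of Hsp90b1 without the first (adjusted p = 0.0749), and that of Creld2 with trended and robust moderation (adjusted p = 0.0782) and in a fit of the compared groups alone (adjusted p = 0.0531).

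Lists of other genes, also chosen with earlier results of these data known, were counted in the same way. Of all genes in WT at 6 h, 21.9% were higher and 22.1% lower. The KO shares were 21.8% and 23%. Of 15 other targeting and translocation genes, 11 rose and 1 fell at 6 h in each genotype, among them Serp1 (1.79 in WT, 1.45 in KO), which stabilises membrane proteins in stressed ER, and Srprb (1.35 and 1.34), a signal recognition particle receptor subunit. Of 18 other COPII and retrieval genes, 16 rose in WT and 14 in KO at 6 h and 0 fell, and the KDEL receptor Kdelr3 was 0.98 above 0 h in WT and 2.01 in KO at 24 h. Of 12 N-glycan addition genes, 8 rose and 1 fell in WT at 6 h and 9 rose and 0 fell in KO, led by Stt3a (1.62 and 1.12), a catalytic subunit of the oligosaccharyltransferase. Outside the ER, of 16 cytosolic and mitochondrial chaperones, 12 rose and 1 fell in WT at 6 h, and 11 and 1 in KO.

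The remaining ER lists held genes that rose and genes that fell. Of 14 other ER chaperones and prolyl isomerases, 4 rose and 4 fell in WT at 6 h, and 3 and 4 in KO, shares near those of all genes, with Fkbp7 falling by 0.99 and Fkbp9 by 0.94 in WT. Of 12 other thiol oxidoreductases, 5 rose and 4 fell in WT and 4 and 4 in KO. Of 12 other degradation genes, 6 rose and 1 fell in WT and 5 and 2 in KO. Of 11 sensors and PERK-branch genes, 6 rose and 1 fell in WT and 7 and 1 in KO at 6 h. Atf4, the PERK-branch transcription factor, rose by 1.24 and 1.06, and Ddit3, which encodes CHOP, by 1.27 and 0.81. At 24 h Ddit3 stood at -0.72 against 0 h in WT and -0.93 in KO.

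Markers of other cells moved with the time course, and their part in the results above was not tested. At 6 h, 21.9% of all genes were higher and 22.1% lower in WT, and 21.8% and 23% in KO. Of 6 tested adipocyte markers, 5 fell at 6 h in WT and 6 in KO. Their mean deviation was 0.73 and 1.22 on the WT 0 h arrays and 1.65 and 1.72 in KO at 0 h, against -0.82 and -0.71 in WT and -0.73 and 0.50 in KO at 6 h. Fabp4 stayed between 7.90 and 8.44 on all arrays, around the array median, while Adipoq ran from 8.57 to 13.26. Of 12 tested epithelial markers, 3 rose and 1 fell at 6 h in WT (21.9% and 22.1% of all genes) and 9 rose and 0 fell at 24 h (18.9% and 19%), with a mean deviation of -0.13 and -0.29 at 0 h, 0.01 and -0.07 at 6 h, and 0.66 and 0.63 at 24 h in WT. In KO it was -0.24 and -0.19 at 0 h and 0.39 and 0.32 at 24 h, where 6 rose and 3 fell (22.5% and 23.1%). Of 7 stromal fibroblast markers, 4 fell and 0 rose at 6 h in each genotype, with a mean deviation of 0.49 and 0.48 at 0 h, -0.31 and -0.23 at 6 h, and 0.21 and 0.23 at 24 h in WT, and 0.27 and 0.31, -0.25 and -0.35, and 0.17 and 0.27 in KO. Of 8 endothelial markers, 6 fell in WT and 5 in KO at 6 h and 0 rose, with 0.17 and 0.35 at 0 h, -0.07 and -0.10 at 6 h, and -0.25 and -0.26 at 24 h in WT. Of 8 smooth muscle markers, 4 rose and 1 fell at 6 h in each genotype. Of 9 macrophage markers 9 fell in KO at 24 h and 0 in WT (23.1% and 19% of all genes). Plasma cells, which are rich in this machinery, were read by 6 plasma and B cell markers, of which 1 rose at 6 h in WT and 0 in KO, where 2 fell. Mzb1 ran from 8.24 to 10.72 and Cd79b from 8.31 to 9.19, above the median on all 17 arrays, and Pou2af1 reached 9.64, above it on 14. Jchain stayed between 7.99 and 8.40, Tnfrsf17 reached at most 8.35 and Ms4a1 at most 8.31. On the second KO 0 h array the plasma and B cell markers stood at 0.71, the macrophage markers at 1.12 and the granulocyte markers at 1.49 above their means.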

How the data were processed

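Whole uterine RNA of WT and KO mice was measured on 17 bead arrays. The deposited values are log2 intensities brought by the authors to a common distribution (the 17 columns have identical quantiles, median 8.20), with BeadStudio named per the submitters' processing notes. The background correction and log offset behind them are not stated in the sources used here, and differences of dim probes may be compressed, and the number of arrays limits the precision.

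Probes with 1 gene symbol in the platform annotation were used. A probe was kept if 2 or more of the 17 arrays read it above their median, and the brightest probe stood for its gene. A mean for each of 8 groups was fitted with limma 3.58.1 in R 4.3.3 (9 residual degrees of freedom, empirical Bayes), with two-sided tests and Benjamini-Hochberg adjustment over 14737 genes within a comparison. Data were also simulated from each gene's mean and spread with independent noise, changing 100 genes by 1 and 100 by 2 (log2) in WT at 6 h. Of each 100, 99% were recovered, with 11 false calls in the run. Far more genes changed in the real comparison, and shifts shared by the genes of an array were not simulated. The run therefore checks the fit and does not measure how reliable the calls are.

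Values on every array were given for the 2 genes of each subgroup (4 for subgroups of 10 or more) that ranked highest by WT change. The signed WT changes were averaged over the 3 times, and the absolute value of that mean was ranked. Array values were also given for up to 8 genes past the test between genotypes (0 were). Up to 4 genes with the largest fall against 0 h were added. Of each other pathway list up to 4 members past the test were named. The 38 genes and the lists were chosen with earlier results of these data known. Alternatives changed the filter, the probe rule, the normalization, the background, the variance moderation, array weights, the samples in the fit, a replicate block and the arrays, 1 at a time.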

Additional observations from a re-analysis of the deposited data

How the results depend on the processing

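A count kept its size if it changed by no more than a set factor, and a median if it moved by less than 0.13. That limit is the pooled spread of the array medians within groups, so small medians could shrink much within it. Of 35 counts and medians, all 35 kept their size without a filter, with the mean of a gene's probes, after cyclic loess and after background subtraction. Among 120 changes of named genes, 4, 2, 2 and 2 calls were lost in these settings, and 0, 1, 1 and 0 gained. With a stricter filter, which leaves out dim genes, 27 of the 35 kept their size. With that filter the median change was 0.299 and 0.921 in WT at 3 and 6 h, 0.353, 0.785 and 0.66 in KO at 3, 6 and 24 h, -0.238 in KO from 6 to 24 h and 0.237 for the interaction at 24 h. Genes called between the genotypes at 24 h numbered 2 with the stricter filter, 1 with trended and robust moderation, 6 with array weights and 6 in fits of the compared groups alone. Array weights called 1 gene in the interaction at 24 h, 2 jointly, and 7 in KO from 3 to 6 h, where the compared groups alone gave 2. For these changes the cause was not tested. No gene named with a passed test turned its sign, while medians near 0, as between the genotypes at 24 h, took either sign.

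The replicate number as a block gave 29 genes in WT at 6 h and 12 at 3 h and moved no count or median beyond the limits. Between arrays sharing a number, the correlations of their deviations took both signs (-0.195 to 0.305, median -0.00105). In most groups the deviations of the arrays from their group mean mirror each other, so many of these correlations are duplicates. They therefore cannot decide whether the numbers pair the arrays. A block by title letter gave 5 genes in KO from 3 to 6 h, 4 higher and 1 lower.

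Leaving out each array in turn gave, in WT, 7 to 16 genes at 3 h (median 0.099 to 0.298), 24 to 29 at 6 h (0.704 to 0.948), 6 to 19 at 24 h (0.189 to 0.568) and 15 to 25 from 3 to 6 h. In KO it gave 6 to 15 at 3 h, 19 to 27 at 6 h (0.503 to 0.792), 16 to 24 at 24 h (0.344 to 0.606) and 3 to 20 from 3 to 6 h (0.261 to 0.555). Between genotypes it gave 0 to 5 at 0 h, 0 to 2 at 6 h (-0.355 to -0.0636) and 0 to 3 at 24 h (-0.0456 to 0.165). The interaction had a median of -0.14 to 0.135 at 3 h, 0 to 6 genes at 24 h (-0.00676 to 0.266) and 0 to 2 jointly.

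With 2 arrays in most groups, a lone array left in a group is assumed to vary like the others. Signal over background limits the 11 dim members, whose changes may be compressed.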
